A study of Mus musculus with 18 samples.

Results

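The comparison described here is that of lead with saline in mouse pups that carried 1 intact and 1 disrupted copy of the metallothionein locus (+/-). It was read from 2 of the 6 arrays of the series, each hybridised with whole-brain RNA pooled from 5 pups, and from 6 of the 18 deposited columns, because every array was deposited in 3 summaries. The 2 arrays were taken by their labels: the pool of +/- pups given lead acetate (50 mg/kg per injection, on postnatal days 7 and 8, with 2 injections each day separated by 4 h) and the pool of weight-matched +/- pups given saline. Brains were collected 6 h after the last injection, on postnatal day 8. The other 4 arrays, used here only for comparison, held the same treatments of wild-type (+/+) and homozygous knockout (-/-) pups. All 3 genotypes came from a brother-sister cross of a knockout line that had been backcrossed to C57BL/6J for at least 7 generations. Each pool is described as holding male and female pups, which the sex-linked transcripts of the knockout pools, given below, do not bear out. The labels do not say which part of the metallothionein genes is altered, and a pool gives no spread between pups. With 1 array a side there is no test, no standard error and no p-value. The differences below are those of 2 pools.

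Lead is a divalent metal that enters the brain readily in early life, interferes with proteins that use calcium or zinc, and is known for lasting effects on synapse formation. Metallothioneins are short proteins rich in cysteine that hold zinc and copper and can sequester toxic metals; Mt1 and Mt2 are transcribed when the zinc-sensing factor MTF-1 binds metal response elements in their promoters, and Mt3 is the form typical of brain. The design asks how acute lead exposure alters brain transcripts and whether the number of intact metallothionein copies matters. The heterozygous pair is the middle step of that series.

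The promoters of 4 genes are shown: the metal-responsive Mt1 and Mt2, on which the comparison turns, and the pituitary hormone genes Pomc and Cga. Pomc was among the largest differences on the higher side. Cga was also higher in RMA, but it was too dim to be among the genes compared, and GC-RMA did not show the difference. The sequences are the 250 bases before the RefSeq transcript start (GRCm38.p6, plus strand for all 4). In Mt1 (chr8:94178839-94179088) and Mt2 (chr8:94172368-94172617) capitals mark the metal response element core TGCACNC or TGCGCNC, searched on both strands. In Pomc (chr12:3954695-3954944) and Cga (chr4:34893529-34893778) capitals mark TGANGTCA, a cAMP response element type, on either strand.
Mt1: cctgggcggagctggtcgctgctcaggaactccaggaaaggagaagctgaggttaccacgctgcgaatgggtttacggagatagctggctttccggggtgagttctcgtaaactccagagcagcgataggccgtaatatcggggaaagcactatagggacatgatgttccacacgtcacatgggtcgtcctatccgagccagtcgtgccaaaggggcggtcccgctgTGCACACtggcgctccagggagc
Mt2: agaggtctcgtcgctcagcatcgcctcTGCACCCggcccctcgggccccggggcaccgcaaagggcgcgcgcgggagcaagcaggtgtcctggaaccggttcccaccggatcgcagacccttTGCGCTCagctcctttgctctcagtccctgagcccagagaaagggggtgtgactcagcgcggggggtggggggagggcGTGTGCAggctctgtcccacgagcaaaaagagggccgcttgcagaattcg
Pomc: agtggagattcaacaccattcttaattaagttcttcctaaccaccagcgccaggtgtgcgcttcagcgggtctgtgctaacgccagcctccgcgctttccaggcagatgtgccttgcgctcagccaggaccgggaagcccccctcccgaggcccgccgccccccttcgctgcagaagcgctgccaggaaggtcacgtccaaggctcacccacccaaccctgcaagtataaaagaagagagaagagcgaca
Cga: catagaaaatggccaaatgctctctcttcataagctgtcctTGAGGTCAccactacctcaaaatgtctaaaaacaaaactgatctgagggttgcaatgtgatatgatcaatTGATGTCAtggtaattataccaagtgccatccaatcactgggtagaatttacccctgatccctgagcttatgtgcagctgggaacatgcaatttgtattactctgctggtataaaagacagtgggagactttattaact
The metal response core occurred 1 time in the Mt1 window and 3 times in the Mt2 window, and in 21.4% of the 32851 promoter windows of the same length; 1.26% held it 3 or more times. The cAMP element type occurred 2 times in the Cga window, was not found in the Pomc window, and was present in 7.49% of all windows. These matches are a description of letters in the window. Bases outside it, also those after the RefSeq start, were not searched, so the counts are not those of a whole promoter.

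The RMA value, a log2 measure of probe set brightness, was the main scale. For each gene the brightest probe set was taken, and 10916 of 18194 genes, the brighter 60%, were compared. The median gene was 0.15 (log2) higher on the lead array, so every difference is given relative to it. A gene was counted when it lay past 1.5-fold (0.585 on the log2 scale). Few genes did so: 7 were higher with lead (0.0641% of genes compared) and 41 were lower (0.376%). The last gene inside the limit was Sp4 at 0.60 on the higher side and Fam161a at -0.60 on the lower side, and the first outside were Tent5c at 0.56 and Pla2g10 at -0.58. The SD of the differences over genes was 0.165, with 99.6% of genes inside the limit, 3 genes past 2-fold higher and 13 past 2-fold lower. In whole brain, fewer cells of a type and less RNA per cell cannot be told apart.

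The same 2 arrays gave other counts in the other summaries. GC-RMA placed 143 genes past the limit higher (1.31%) and 168 lower (1.54%), and PLIER 10 higher (0.0916%) and 211 lower (1.93%). In all 3 summaries at once, 6 genes were past it higher (0.055%) and 26 lower (0.238%). These are 3 readings of 1 hybridisation and not replicates. The 6 higher genes were Gh, Pomc, Wdfy1, Galc, Tatdn2 and Ly86. The 26 lower genes were led by Laptm5, Nrip2, Srr, Pik3cd and Hdac11.

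**Figure D1:**
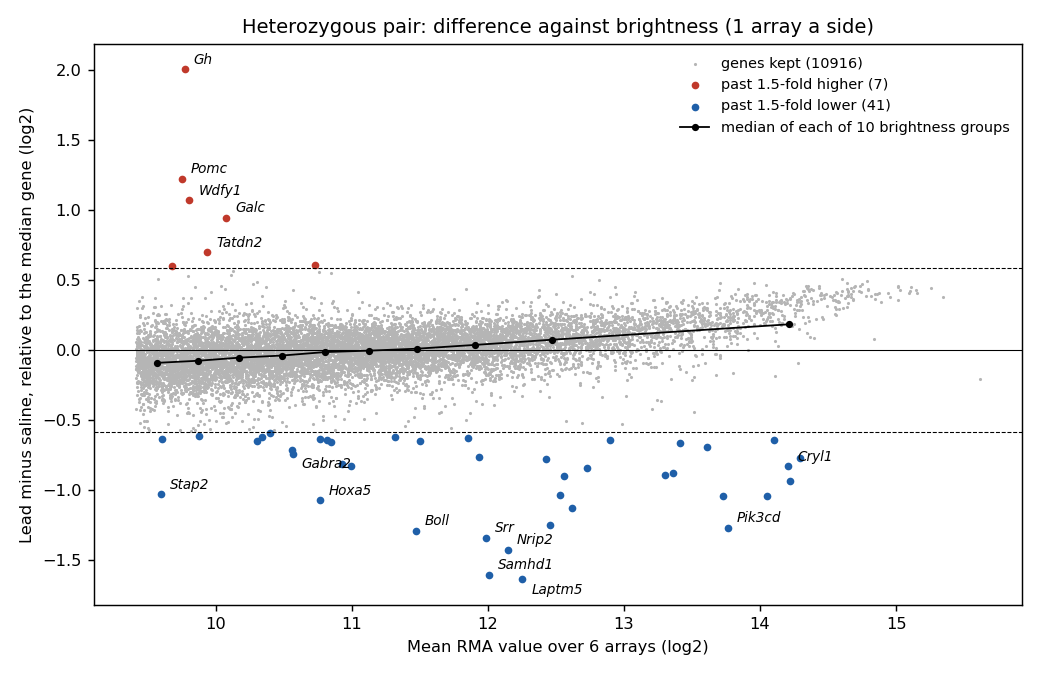
Lead minus saline in the heterozygous pair against mean brightness, both in log2 units, with 1 point per gene, the 7 higher genes in red, the 41 lower genes in blue and dashed lines at 1.5-fold. The medians of 10 equal brightness groups, joined by the black line, run from -0.09 in the dimmest to 0.18 in the brightest; the higher genes lie at the dim end and most of the lower genes at the bright end.

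Hormone transcripts of the pituitary gave the largest differences on the higher side. Gh, growth hormone of the somatotropes, measured 9.32 on the saline array and 11.48 on the lead array, a relative difference of 2.00, or 4.0-fold. On the other 4 arrays its brightest probe set lay between 9.29 and 9.83, so the heterozygous lead pool stood above all others. All 4 Gh probe sets were higher with lead, and the 3 dimmer ones moved further, from 7.64 to 10.66, from 7.45 to 11.11 and from 6.96 to 9.85. Pomc, the precursor of corticotropin, melanocyte-stimulating hormone and endorphin, went from 9.58 to 10.96, a difference of 1.22 (2.33-fold), and its second probe set from 7.33 to 9.70. The other arrays read 9.36 to 9.72 for Pomc. Cga, the alpha subunit shared by thyrotropin and the gonadotropins, lies below the brightness limit. Its RMA value went from 8.15 to 9.40, against 8.07 to 8.14 on the other 4 arrays, a difference of 1.10, and PLIER gave 0.92, whereas GC-RMA gave -0.05.

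The remaining pituitary transcripts did not move with these 3. Prl, prolactin, measured 8.27 and 8.24 in saline and lead, Lhb 9.03 and 9.17, Fshb 7.58 and 7.73, and Tshb 9.02 and 9.31; all 4 were below the brightness limit and their relative differences lay between -0.18 and 0.14. Of 30 genes listed for anterior and intermediate pituitary, 25 were found and 9 were above the limit. Among those 9 the median was 0.07, with 6 above the median gene and 2, Gh and Pomc, past 1.5-fold higher. Over all genes compared the share past it higher was 0.0641%. The 22 found besides Gh, Pomc and Cga ranged from -0.36 (Hesx1) to 0.21 (Dlk1), with a median of -0.05 and 9 above. Tbx19, a factor of the Pomc lineage, measured 9.70 and 9.69. The mean RMA value of the 25 found, less each array's median gene, was -1.43 on the heterozygous lead array, -1.56 on its saline partner and -1.67 to -1.47 on the other 4. The part of pituitary tissue in these differences was not tested.

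**Figure D2:**
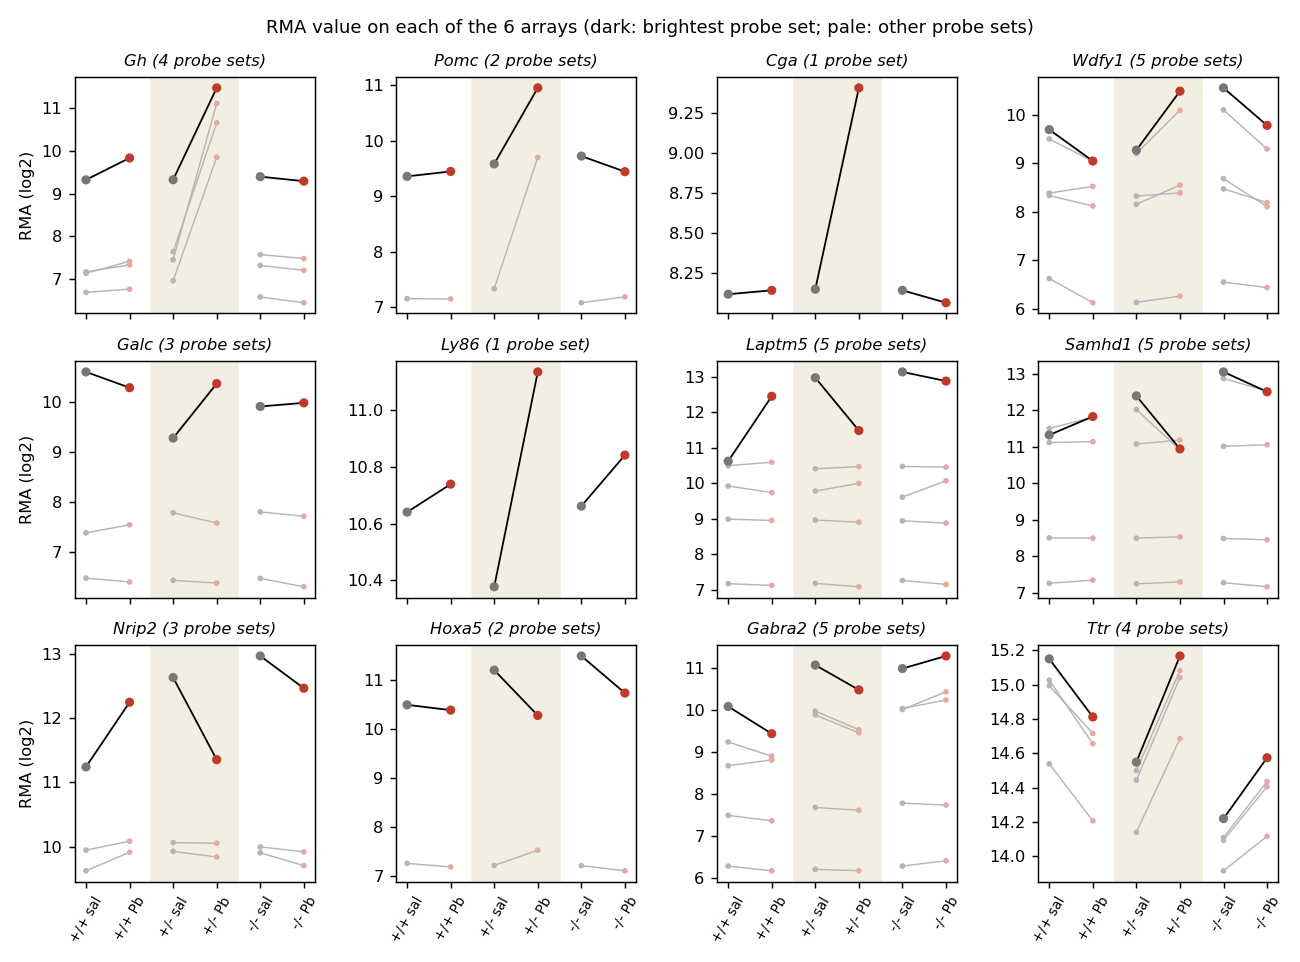
RMA value (log2) of 12 genes on each of the 6 arrays, grey points for saline and red points for lead (Pb), dark for the brightest probe set and pale for the others, with the heterozygous pair shaded. Every probe set of Gh, Pomc and Ttr is higher on the heterozygous lead array than on its saline partner, whereas in Laptm5 and Nrip2 the dark line goes down much further than the pale ones.

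The other higher genes differed in kind. Wdfy1, an endosomal adaptor with FYVE and WD repeat domains, went from 9.27 to 10.49 (1.07, or 2.10-fold), and its second bright probe set from 9.20 to 10.09 (0.74). Wdfy1 also varied between the other pools, from 9.05 in wild-type lead to 10.56 in knockout saline, and both heterozygous values lie within that range. Galc, the lysosomal enzyme that degrades galactosylceramide of myelin, went from 9.28 to 10.38, a difference of 0.94. The saline value was the low one, since the other 4 arrays read 9.92 to 10.61, and the 2 dimmer Galc probe sets differed by -0.36 and -0.20. Tatdn2, a TatD-type nuclease, went from 9.43 to 10.28 (0.70), and here too saline was below and lead above the other arrays (9.90 to 10.12). Sp4, a zinc finger factor of neurons, went from 9.38 to 10.12 (0.60) in RMA and reached 0.48 in PLIER. Over the 7 higher genes, the heterozygous lead array was above all 5 others in 5 and the saline array below all 5 others in 4. The choice of genes favours this. Over all genes compared the shares were 14.9% for the lead array above and 10.3% for the saline array below.

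Ly86, also called MD-1, forms a surface complex with the receptor Cd180 on microglia and B cells. It went from 10.38 to 11.13 (0.60, or 1.52-fold), with 10.64 to 10.84 on the other arrays. Ctss, the microglial protease cathepsin S, went from 10.61 to 11.31 (0.55), just inside the limit. The complement genes C1qb, C1qa and C1qc, made in brain mainly by microglia, differed by 0.45, 0.34 and 0.21, and the 2 other C1qb probe sets by 0.64 and 0.33. Of 11 bright microglial genes 9 were above the median gene, with a median of 0.14, 1 past the limit higher (Ly86) and 1 lower (Laptm5). Over all genes compared 0.0641% were past it higher and 0.376% lower. Csf1r, Cx3cr1, Tyrobp and Fcer1g differed by 0.09, 0.14, 0.05 and 0.01, and Mpeg1 by -0.34. The microglial median was 0.27 in the wild-type pair and 0.02 in the knockout pair.

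The lower genes had a bright probe set that went down and, in most cases, other probe sets that did not. Laptm5, a lysosomal membrane protein of blood-derived and microglial cells, measured 12.97 with saline and 11.48 with lead, a difference of -1.64. Its 2 other bright probe sets read 10.40 and 10.46, and 9.78 and 9.99, with differences of -0.09 and 0.07. Nrip2, a nuclear receptor cofactor, went from 12.63 to 11.35 (-1.42 on its brightest probe set), and its other 2 probe sets differed by -0.16 and -0.24. Srr, serine racemase, which makes the NMDA receptor co-agonist D-serine, went from 12.33 to 11.14 (-1.34). Its 3 other bright probe sets differed by -0.20 to 0.04. Pik3cd, the delta catalytic subunit of phosphoinositide 3-kinase, went from 14.24 to 13.12 (-1.27), with -0.15 on its second bright probe set.

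The pattern held for most of the 41 lower genes. These genes were counted by their brightest probe set alone, a choice that favours smaller differences on their other probe sets. In 38 a second probe set existed and in 3 another one was past 1.5-fold lower. In 27 the second was itself above the brightness limit, and in 3 of these, Samhd1, Vat1 and Gabra2, another bright one was past 1.3-fold lower. The 51 other bright probe sets of the 27 genes split 26 below to 25 above the median gene, and the median over genes of their values was -0.06. Hdac11, a histone deacetylase, gave -1.25 on one probe set and 0.07 on the other. Ptprk, a receptor tyrosine phosphatase, gave -1.04 and then -0.08 to 0.18 on 5 others. Men1, the menin tumour suppressor, gave -0.83 and 0.11. Over all 4106 genes with 2 or more bright probe sets the median SD between them was 0.090, and its 95th percentile 0.255. Probe sets whose identifiers end in _x_at, the array maker's mark for probes shared with other sequences, represented 10 of the 41 lower genes (24.4%) and 4.76% of all genes compared. Whether the brightest or the other probe sets follow the transcript was not tested.

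**Figure D3:**
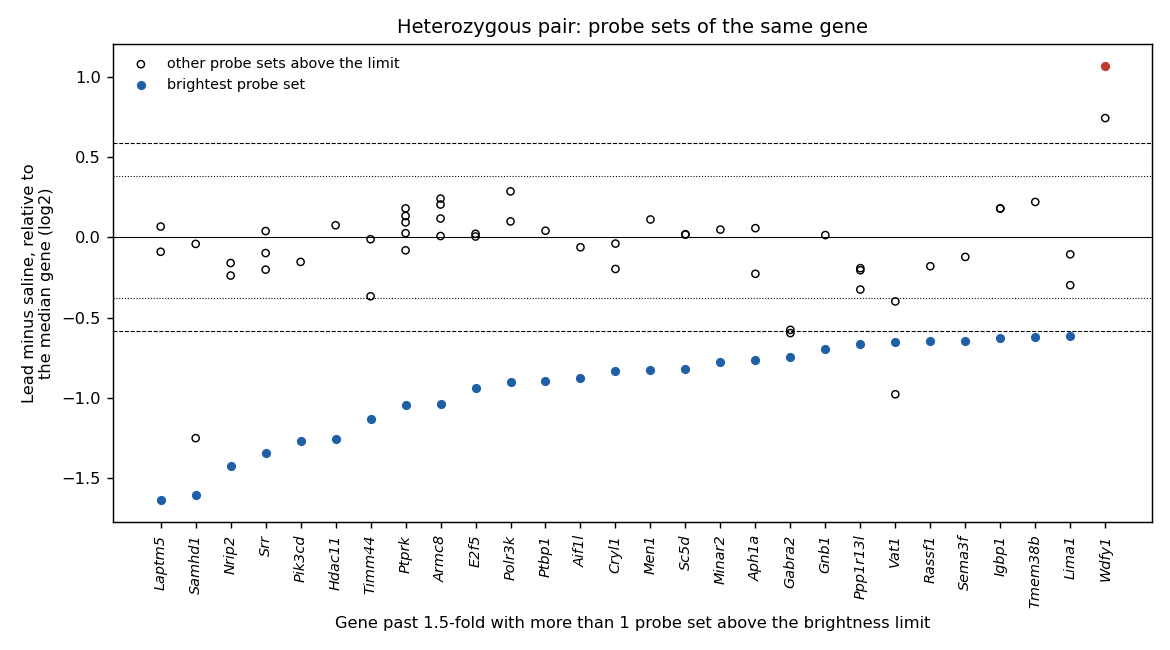
Lead minus saline (log2) for the brightest probe set (filled) and the other probe sets above the brightness limit (open) of the 27 lower genes and 1 higher gene that have more than 1, with dotted lines at 1.3-fold and dashed lines at 1.5-fold. Open points lie near 0 for most lower genes. Those of Gabra2, Vat1 and Wdfy1 lie past the dotted lines, as does 1 of the 2 of Samhd1, the other lying at -0.04.

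The levels of the lower genes on all 6 arrays follow, as a description, since the genes were chosen for a low heterozygous lead value beside a high saline one. After each array's median was taken off, their median level was 1.48 in heterozygous saline and 0.44 in heterozygous lead, 0.23 in wild-type saline and 1.18 in wild-type lead, and 1.92 and 1.45 in the knockout arrays. Wild-type saline was the lowest array for 21 of the 41 and among the lowest 2 for 36; heterozygous lead was the lowest for 15 and among the lowest 2 for 39, which the choice of genes favours; wild-type lead was the lowest for 3 and knockout lead for 2. Knockout saline was the highest for 28, and heterozygous saline for 10.

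Set beside the other genotypes, the lower genes went opposite ways. In the wild-type pair 141 genes were past 1.5-fold higher (1.29%) and 38 lower (0.348%), and 17 of the 41 were among the 141, against 2, Gnb1 and Vat1, among the 38. Thus 41.5% of the heterozygous lower genes and 12.1% of the wild-type higher genes are the same genes. Laptm5 was 2.01 higher in wild-type lead, Cryl1, a crystallin-family dehydrogenase, 1.69, and Pik3cd 1.46. In the knockout pair 9 genes were past the limit higher (0.0824%) and 25 lower (0.229%); none of the 41 was among the 9, and 8 were among the 25: Gss, Hdac11, Hoxa5, Men1, Minar2, Nrip2, Samhd1 and Stap2. The sign matched the heterozygous one for 5 of 41 genes in the wild-type pair and 39 of 41 in the knockout pair. Over all 10916 genes the heterozygous differences correlated with r = -0.31 (rho -0.31) with those of wild-type and r = 0.49 (rho 0.53) with those of knockout pups. After each difference was taken within brightness bins these were -0.23 and 0.42. The pairs share no array, genes are not independent replicates, and these values describe the 6 arrays. The knockout pools also differed in sex-linked transcripts, given below, so lead and sex cannot be told apart in that pair.

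**Figure D4:**
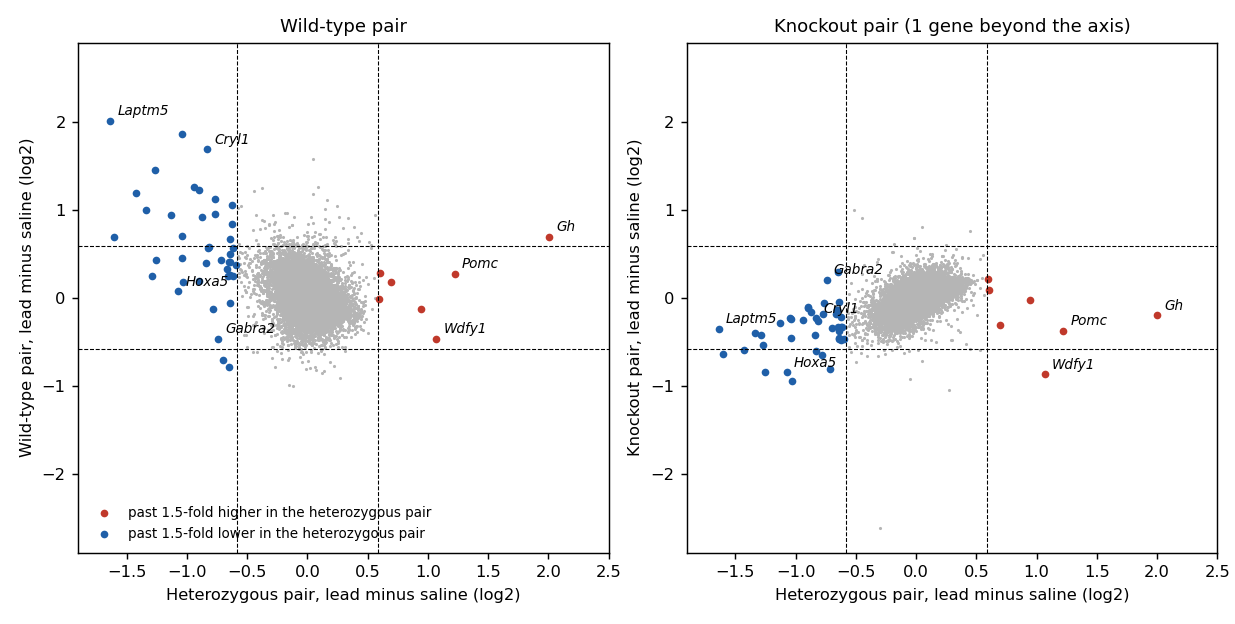
Lead minus saline (log2, relative to each pair's median gene) in the heterozygous pair against the wild-type pair (left) and the knockout pair (right), 1 point per gene, with the 7 higher genes in red and the 41 lower genes in blue. Most blue points lie above 0 on the left, up to 2.01 for Laptm5, and below 0 on the right; 1 gene of the knockout pair is beyond the axis.

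Of the 7 higher genes, Gh alone was also past the limit in the wild-type pair (0.69); its probe set with the largest difference gave 0.34 there and 3.51 here. Wdfy1 was past it the opposite way in the knockout pair (-0.87). Pomc gave 0.27 in wild-type and -0.38 in knockout pups, and Ly86 0.28 and 0.09.

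A stricter reading asked for at least 2 bright probe sets of a gene, all past 1.3-fold the same way. It held for 8 genes higher (0.195% of 4106) and 4 lower (0.0974%) in the heterozygous pair, 42 and 22 in the wild-type pair (1.02% and 0.536%), and 7 and 3 in the knockout pair (0.17% and 0.0731%). The higher genes were Wdfy1 with Aldoc, Slc1a2, Ttr, Gpm6a, Ndrg4, Nrep and Chmp4b. Ttr, transthyretin, the thyroid hormone carrier secreted by choroid plexus, went from 14.55 to 15.17 (0.47), with 0.39 to 0.47 over its 4 probe sets. The wild-type arrays read 15.15 (saline) and 14.81 (lead) and the knockout arrays 14.22 and 14.57, so the heterozygous saline value was inside that range. Clic6 and Sostdc1, also listed for choroid plexus, differed by -0.09 and -0.09. Aldoc, the astrocyte form of aldolase, gave 0.42 and 0.66, and Slc1a2, the main astrocyte glutamate transporter, 0.39 and 0.43. Gpm6a, a membrane glycoprotein of growing neurites, gave 0.49 and 0.45. On its brightest probe set each of these but Wdfy1 measured 13.48 or more on the saline array. That is in the brightest of 10 equal groups of genes, whose median was 0.18 higher with lead. The second bright probe sets of Aldoc, Slc1a2 and Chmp4b had mean values of 9.65, 10.05 and 12.42. They lay below that group, which starts at 12.81, and differed by 0.66, 0.43 and 0.61. Values within brightness bins and with GC-RMA cover the brightest probe set only. Within bins Ttr came to 0.22, Aldoc to 0.18, Slc1a2 to 0.14 and Gpm6a to 0.24. GC-RMA gave 0.04 for Ttr, 0.02 for Gpm6a and 0.26 for Chmp4b.

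The 4 lower genes of that reading were Gabra2, Vat1, Aebp1 and Oprm1. Gabra2, the alpha-2 subunit of the GABA-A receptor, went from 11.08 to 10.49 (-0.74), with -0.60 and -0.58 on its next 2 probe sets. Its values were also lower in wild-type (10.09 with saline and 9.44 with lead) than in knockout pups (11.00 and 11.30). The heterozygous saline value lay within the knockout range, and the heterozygous lead value between the wild-type and knockout values. Vat1, a vesicle-associated membrane protein, gave -0.65, -0.40 and -0.98. Aebp1, a secreted carboxypeptidase-like protein of connective tissue, gave -0.39 and -0.60, and Oprm1, the mu opioid receptor, -0.43 and -0.44. PLIER gave -0.04 for Aebp1 and 0.18 for Oprm1, against -0.76 for Gabra2 and -0.88 for Vat1. Samhd1, an enzyme that hydrolyses deoxynucleotides, had 2 probe sets at -1.60 and -1.25 and another bright one at -0.04.

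Metallothioneins differed little. Mt1 went from 12.45 to 12.87 (0.27, or 1.21-fold), Mt2 from 12.05 to 12.27 (0.07) and Mt3 from 13.17 to 13.35 (0.03); all 3 were inside the limit, and the second Mt1 probe set read 9.17 on both arrays. Mt4, the form of stratified epithelia, was far below the brightness limit at 6.22 and 6.46. In wild-type pups the relative differences of Mt1 and Mt2 were 0.32 and 0.33, and in knockout pups -0.06 and -0.14. The brightest Mt1 probe set followed the genotype: both heterozygous values lay between the wild-type values of 13.17 and 13.30 and the knockout values of 11.68 and 11.71, which are still well above the brightness limit of 9.42. The dimmer Mt1 probe set did not separate the genotypes, with 9.06 and 9.37 in wild-type and 9.13 and 9.05 in knockout pups. The median of the 3 bright metallothioneins was 0.07 in the heterozygous pair and 0.01 within brightness bins.

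Other metal genes lay close to the median gene. No gene of 20 in zinc transport was past 1.3-fold, where 1.07% of all genes lay higher and 1.53% lower. Slc39a1 was lowest at -0.30 and Slc39a10 highest at 0.19. Slc30a1, the zinc exporter that MTF-1 also controls, differed by 0.03, and Mtf1 by -0.12. Alad, the heme synthesis enzyme that lead inhibits, differed by -0.07, and Alas1 and Fech by 0.03 and 0.00. Copper genes were below the median gene in 9 of 10, with a median of -0.14. Within brightness bins 3 of the 10 were above and the median was -0.13. GC-RMA gave -0.04 and PLIER -0.06. The medians were -0.15 in the wild-type and -0.06 in the knockout pair. Sod1, the copper-zinc superoxide dismutase, was lowest at -0.53, but its other 2 bright probe sets read -0.01 and 0.06.

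No stress list held a gene past 1.5-fold among 127 list entries above the brightness limit, and 2 entries were past 1.3-fold higher, the chaperones Hsp90aa1 (0.42) and Hspa8 (0.40), and 1 lower, the interferon-induced Bst2 (-0.40). The other bright probe sets gave 0.16 and 0.26 for Hsp90aa1 and 0.44 and 0.29 for Hspa8. Within brightness bins the 2 brightest came to 0.17 and 0.15, and the heat shock list had a median of 0.07, or 0.00 within bins. Hspa5, the endoplasmic reticulum chaperone BiP, gave 0.34 on its brightest probe set and -0.15 and 0.18 on its others, and 12 of 17 chaperones of that compartment were above the median gene (median 0.12). NRF2 targets had a median of 0.05 over 14 genes, from Srxn1 at -0.33 to Tkt at 0.28, both nearer 0 on their other bright probe sets (-0.09 and -0.06, 0.07 and -0.02). ATF4 targets had 3 of 16 above the median gene and a median of -0.08. Inflammatory genes had 1 of 9 above and a median of -0.16, with Il1b at -0.26 and Serpina3n at -0.38. Of the activity-regulated genes, Fos differed by 0.16, Egr1 by 0.07 and Junb by -0.21 (16 genes, median 0.04). For comparison, over all genes 5456 of 10916 were above the median gene, 1.07% past 1.3-fold higher and 1.53% lower. Past 1.5-fold the shares over all genes were 0.0641% higher and 0.376% lower. At those shares few or none of 127 entries would be past it, so their absence says little about stress genes.

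Genes of young neurons lay mostly above the median gene. Of 16 neuronal precursor genes above the limit 14 were above the median gene and 7 past 1.3-fold higher, with a median of 0.31. Over all genes compared 1.07% were past 1.3-fold higher. Insm1, a zinc finger factor of newly born neurons, went from 10.51 to 11.22 (0.56), Cd24a from 13.62 to 14.25 (0.48), Nhlh2 from 9.57 to 10.16 (0.45), Sox11 from 12.34 to 12.94 (0.45) and Eomes, a marker of intermediate progenitors, from 9.74 to 10.30 (0.41). Dcx, doublecortin, was 0.39 higher, whereas Tubb3 and Nes, neuronal tubulin and nestin, gave -0.11 and -0.34. Within brightness bins the median was 0.19, below the 0.21 of the granule lineage described next. In the other pairs it was -0.07 (wild-type) and 0.17 (knockout). The other probe sets were lower in most cases: the second bright one of Insm1 gave 0.14, the 5 others of Sox11 -0.21 to 0.26, the 2 others of Cd24a 0.23 and 0.31, the bright others of Dcx 0.32 and -0.19, and the dim one of Eomes -0.02.

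Genes of the cerebellar granule lineage, which is still dividing in the outer cerebellar layer at this age, were higher in all 3 pairs, by a median of 0.24 here, 0.60 in wild-type and 0.42 in knockout pups. In the heterozygous pair 12 of 15 were above the median gene and 5 past 1.3-fold higher, against 1.07% of all genes compared. Pax6 went from 9.46 to 10.14 (0.53), Zic1 from 13.57 to 14.15 (0.43) and St18 from 10.12 to 10.65 (0.38), while Barhl1 gave -0.09. The 4 dim probe sets of Pax6 gave -0.23 to -0.01, the dim one of St18 -0.21, and the second bright one of Zic1 0.26. Nhlh1, Nhlh2 and Insm1 are on both lists. The mean RMA value of the 20 found, less each array's median gene, was -0.90 in heterozygous saline and -0.75 in heterozygous lead, within the range of -1.13 to -0.59 over the other 4 arrays. Genes of Purkinje cells, their synaptic partners, had a median of 0.16, or 0.06 within bins. The part of cerebellar tissue in these values was not tested.

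**Figure D5:**
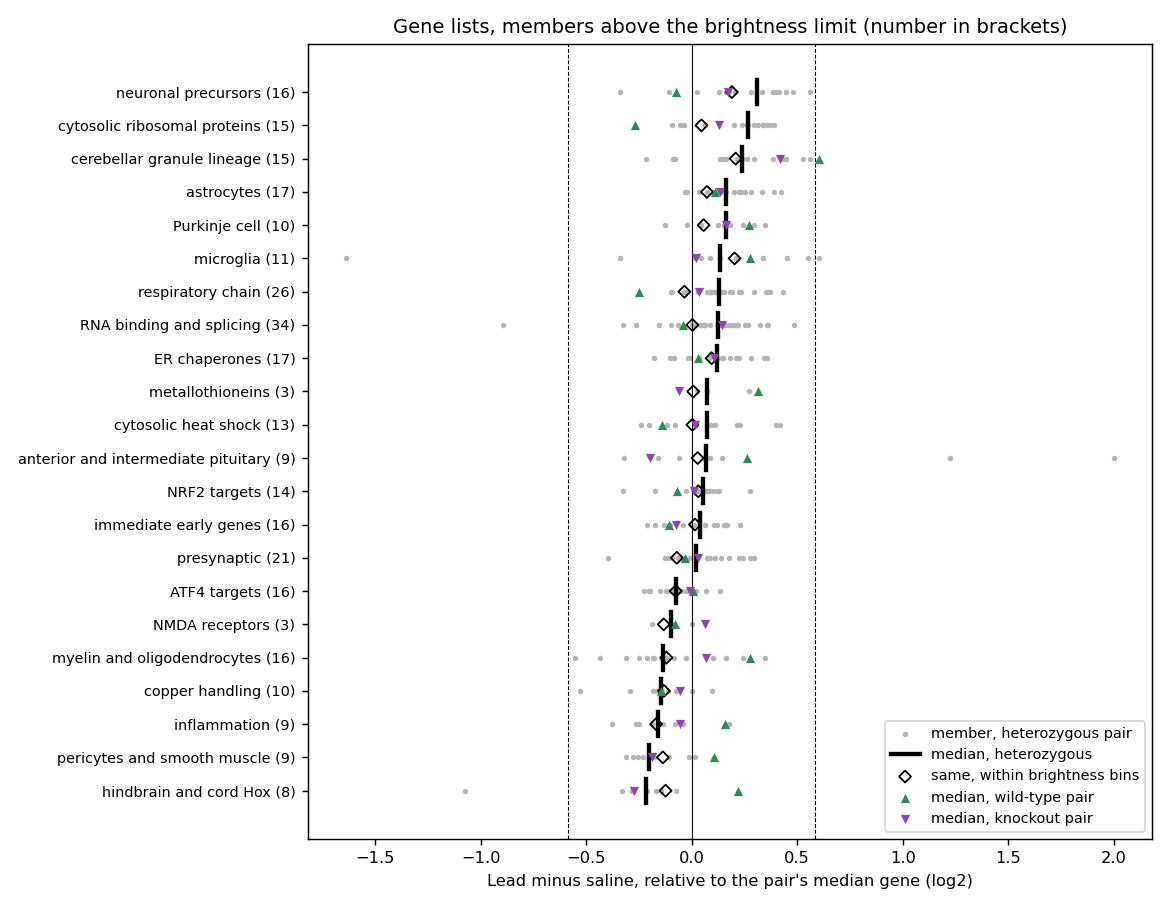
Lead minus saline (log2, relative to the pair's median gene) for members of 22 gene lists in the heterozygous pair (grey points), with the list median (black bar), the same median within brightness bins (diamonds), and the medians of the wild-type (triangles up) and knockout (triangles down) pairs. Neuronal precursors lie at 0.31 and Hox genes at -0.22; ribosomal, respiratory and splicing medians move close to 0 within brightness bins.

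Glial lists divided. Of 17 astrocyte genes 15 were above the median gene, with a median of 0.16 that became 0.07 within bins; Gfap, the astrocyte filament, went from 12.28 to 12.59 (0.16). Of 16 myelin and oligodendrocyte genes 12 were below, with a median of -0.13 (-0.12 within bins) against 0.28 in the wild-type pair. Fa2h, which makes the hydroxylated lipids of myelin, went from 10.57 to 10.17 (-0.55), Olig2, the oligodendrocyte lineage factor, from 11.17 to 10.89 (-0.43), and Cldn11 and Mag differed by -0.31 and -0.25. Mbp, myelin basic protein, gave 0.35 on its brightest probe set (0.10 within bins) and -0.08 to 0.16 on its 7 others. Pericyte and smooth muscle genes were below the median gene in 8 of 9 (median -0.20), with Acta2 at -0.31 and Pdgfrb at -0.28, though the second bright Pdgfrb probe set gave 0.12.

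All 8 bright Hox genes, which mark hindbrain and cord, were below the median gene, with a median of -0.22. Hoxa5 gave most of the range at -1.07, from 11.20 to 10.28, while its second, dim probe set gave 0.16; the other 7 lay between -0.33 and -0.07. Of all 26 Hox genes found, 3 were above the median gene. The median of the bright ones was 0.22 in wild-type and -0.27 in knockout pups. These genes were near the brightness limit, where the median of the dimmest group of genes was -0.09, and within bins their median was -0.12.

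Genes of synapses and neuronal signalling lay near the median gene. Their 13 lists had medians between -0.10 and 0.04, and of the 182 entries above the limit 2 were past 1.5-fold, both lower: Gabra2 and the axon guidance gene Sema3f (-0.64, with -0.12 on its other bright probe set). Over all genes compared 0.0641% were past 1.5-fold higher and 0.376% lower, so a count this small says little about the lists. Grin2b, the NMDA receptor subunit of immature synapses, differed by -0.10 and Grin2d by -0.19. Slc17a7, the vesicular glutamate transporter, gave -0.40, Dlg4, the scaffold PSD-95, -0.33, and Camk2a 0.36. The other bright probe sets went otherwise, with 0.26 for Dlg4 and -0.23 to 0.01 for the 4 of Camk2a. Snap25, Syn1 and Syp gave 0.22, -0.01 and -0.11.

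Brightness ran through these lists. From the dimmest to the brightest of 10 equal groups the median difference went from -0.09 to 0.18 in the heterozygous pair, from 0.14 to -0.11 in the wild-type pair and from -0.09 to 0.09 in the knockout pair. The SD of gene levels was 1.225 on the heterozygous lead array and 1.152 on its saline partner. Cytosolic ribosomal protein genes had 12 of 15 above and a median of 0.27 that became 0.05 within bins; respiratory chain genes went from 0.13 to -0.04 and splicing genes from 0.13 to 0.00. By contrast, 24 of the 41 lower genes came from the 3 brightest groups, where the median gene was higher.

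Between arrays, levels over the genes compared correlated at 0.982 to 0.993, with 0.992 within the heterozygous pair, so this measure does not set the pair apart. Whole-brain markers such as Snap25 (13.64 and 14.01) and Mbp (14.22 and 14.72) were bright on both. The 3' Gapdh probe set exceeded the 5' one by 0.68 (saline) and 0.82 (lead), against 0.54 to 1.19 on the other 4 arrays. Xist measured 12.19 with saline and 12.04 with lead on its brightest probe set. Its second bright one went the other way, with 11.68 and 12.20, as did a dim one, with 8.25 and 8.97. The Y-linked Eif2s3y measured 9.93 and 10.16, with Kdm5d and Uty below the brightness limit. The female-specific and the Y-linked transcript were thus both read on both heterozygous arrays. In the knockout pair Eif2s3y measured 6.50 with saline and 11.16 with lead. Xist measured 12.75 and 10.23 there, and 12.63 and 7.14 on its second bright probe set. Lead and sex cannot be told apart in the knockout pair. Hybridisation control probe sets were 0.48 higher on the heterozygous lead array (median of 9) and poly-A controls 0.58 higher (median of 12), as deposited.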

How the data were processed

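Whole-brain RNA of 6 pools (3 genotypes, lead or saline) had been hybridised to Affymetrix mouse 3' expression arrays. Partek, RMA, GCRMA and PLIER are the tools named, per the submitters' processing notes, and their versions and settings are not given in the sources used here. RMA and GC-RMA columns were deposited as log2 values. PLIER columns were deposited as linear intensities, to which 16 was added before taking log2. The labels name a labelling kit made for whole-transcript arrays, although the probe sets belong to a 3' design.

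Of 45101 probe sets, 34958 had 1 gene symbol in the platform annotation, 932 several and 9211 none; only the first were used, and 34754 of them were found by identifier in the GRCm38.p6 RefSeq table. Python 3.11.15, numpy 2.4.6 and pandas 2.3.3 computed lead minus saline per pair, less the pair's median gene. With 1 array a side no test was possible, and precision is limited by there being so few arrays. The 3 summaries were never counted as replicates. The counting was tested on simulated data. Differences within brightness bins were taken less the median of 20 bins of equal size. Named genes are the 20 higher and 20 lower genes with the largest smallest difference over the 3 summaries, up to 4 members of each list described, and fixed metallothionein, sex-linked and pituitary genes; others named here were chosen after their values were seen. The members and the 65 gene lists were chosen with earlier results of these data known. Promoters came from RefSeq (GRCm38.p6).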

Additional observations from a re-analysis of the deposited data

Results flagged for a closer look

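Some named genes lay past 1.5-fold one way in the heterozygous pair and past it the opposite way in another pair. With 1 array a side the difference between pairs was not tested, and each value below is relative to its own pair's median gene. Wdfy1 was 1.07 in the heterozygous pair and -0.87 in the knockout pair. The other 13 were lower here and higher in the wild-type pair. Laptm5 was -1.64 here and 2.01 in wild-type pups, Nrip2 -1.42 and 1.19, Srr -1.34 and 1.0, and Pik3cd -1.27 and 1.46. Timm44, part of the mitochondrial protein import motor, was -1.13 and 0.95, Ptbp1, a splicing repressor of non-neuronal cells, -0.90 and 1.22, and the cell cycle factor E2f5 -0.94 and 1.26. Samhd1 was -1.60 and 0.69, Aif1l -0.88 and 0.92, and Cryl1 -0.83 and 1.69. The replication nuclease Fen1 was -0.77 and 1.12, the gamma-secretase subunit Aph1a -0.76 and 0.95, and Ptprk -1.04 and 0.70. Of these 13, Samhd1 has another bright probe set past 1.3-fold lower, Fen1 has no other bright one, and the other bright probe sets of the rest were inside 1.3-fold in the heterozygous pair. Poly-A control probe sets, which follow spiked bacterial transcripts and no mouse gene, were 0.58 higher on the heterozygous lead array (median of 12, as deposited). Their part in the gene differences was not tested.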

How the results depend on the processing

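The counts moved most. Against 7 genes higher, the count was 143 with GC-RMA, 11 after quantile normalization, 43 without the shift to the median gene, 20 without the brightness filter, 0 in the upper 40% of genes, 4 with the mean over probe sets, 11 within brightness bins, and 117 and 3 at 1.3-fold and 2-fold. Against 41 lower it was 168 with GC-RMA, 211 and 186 with PLIER (offsets 16 and 64), 25 without the shift, 8 with the mean over probe sets, 4 for genes with 2 bright probe sets past 1.3-fold, and 167 and 13 at 1.3-fold and 2-fold. As deposited, without the shift, list medians were 0.22 for pituitary, 0.46 for neuronal precursors, 0.39 for the granule lineage, 0.31 for astrocytes, 0.29 for microglia, 0.016 for myelin (reversed), -0.066 for Hox, -0.052 for pericytes, 0.42 for ribosomal proteins and 0.28 for both respiratory and splicing genes. GC-RMA gave 0.38 for the granule lineage, 0.25 for microglia, -0.12 for Hox, -0.061 for pericytes, 0.071 for ribosomal proteins and -0.033 (reversed) for the respiratory chain, and Cga came to -0.047 (reversed). Quantile normalization gave 0.18 for precursors, 0.014 for ribosomal proteins, -0.056 (reversed) for the respiratory chain and 0.017 for splicing. Brightness bins, added after seeing the data, gave 0.19 for precursors, 0.072 for astrocytes, -0.12 for Hox, 0.046 for ribosomal proteins, -0.035 (reversed) for the respiratory chain and 0.003 for splicing. The Hox median was -0.49 and -0.46 with PLIER, -0.12 without the brightness filter and -1.11 for the 1 gene in the upper 40%. With the mean over probe sets precursors came to 0.20, and Polr3k to 0.013 (reversed). Of 53 single genes, 25 kept their sign and their side of 1.5-fold with that mean, 38 with GC-RMA and 48 with PLIER (offset 16); 18, 12 and 23 moved by less than 0.090, the median SD between probe sets. Sizes moved further, as with GC-RMA for Gh (5.21), Galc (4.21) and Armc8 (-3.37). The causes were not tested. No paired analysis was possible because the labels carry no replicate numbers and each combination has 1 array. Signal over background was not analysed here, and spread between pups or hybridisations was not measured, so no difference here can be set against it.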

Other observations

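A few genes of other groups lay near or past the limit. Sc5d, a late enzyme of cholesterol synthesis, differed by -0.82, while its other bright probe sets had a median of 0.02 and the 19 genes of the list a median of 0.01; Hmgcs1, an early enzyme of the same pathway, gave 0.24 to 0.40 over its 4 bright probe sets. Ntng1, netrin-G1 of thalamic axons, gave -0.49 on its brightest probe set and -0.10 on its other bright one, with 10 of 13 thalamic genes below the median gene and a median of -0.10. In the endothelial list (13 genes, median -0.01), Vwf, von Willebrand factor, went from 9.27 to 9.93 (0.51). Gss, glutathione synthetase, measured 10.80 and 10.23 (-0.71), and -0.81 in knockout pups, with -0.10 on its second, dim probe set. Dividing-cell genes had a median of 0.04 here, 0.24 in wild-type and 0.11 in knockout pups.

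Of the 65 lists, 32 had a median above and 33 below the median gene, and of the 738 different list genes above the brightness limit 3 were past 1.5-fold higher (0.407%, against 0.0641% of all genes) and 6 lower (0.813%, against 0.376%). The 3 are Gh, Pomc and Ly86, and the lists were chosen with results of these data known. Of 59 lists with at least 4 bright members, 42 lay within 0.1 of the median gene, and 50 did so within brightness bins.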
